A study of Mus musculus with 72 samples.

Results

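Astrocyte function was followed through 9 genes that mark these cells or carry their main tasks, in 72 RNA-seq libraries of mouse hypothalamus. The genes, listed by name, were Agt, Gjb6, Gja1, Slc1a2, Slc1a3, Aqp4, Gfap, Aldh1l1 and S100b, and all 9 of 9 were found among the 21749 genes present in each of the 10 deposited count tables. The mice were adult and of the B6 strain. Each carried a knockout (KO) of 1 of 5 conserved noncoding elements, called E1 to E5, or was wild type (WT) in the same line, and each had gone 72 h without food but with water (fasted) or had been fed. The labels give the aim as testing whether loss of elements linked to hibernation changes gene expression; the positions of the elements and the construction of the lines are not given in the sources used here. The labels name no other allele or agent in any group. The 20 groups, by line, feeding state and genotype, held 3 or 4 libraries each. Titles of the E1, E2, fasted E4 and fasted E5 libraries hold numbers that differ within each group. The labels do not say whether the libraries of a group came from separate mice, so the p-values measure the spread between libraries.

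Astrocytes are the glia that surround synapses and wrap blood vessels with their endfeet. They take up glutamate and potassium after neuronal activity, pass ions and small metabolites to one another through gap junctions made of connexins, and move water across the endfoot membrane. In the hypothalamus they also lie beside the neurons that sense hunger and body fluid, and they are the main brain source of angiotensinogen, the precursor of angiotensin. In a bulk sample, fewer astrocytes and less RNA per astrocyte cannot be told apart.

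The promoters shown are those of the 4 genes called in a test of fasting, so that the bases next to their start sites can be read beside their levels. Sequences are the 250 bases before the start site in RefSeq's mouse annotation (GRCm38.p6), read 5′ to 3′ in the direction of the gene, and capitals mark motif matches. Agt is read from the minus strand at chr8:124569707-124569956, Gjb6 from the minus strand at chr14:57133612-57133861, Gja1 from the plus strand at chr10:56377050-56377299 and Slc1a3 from the minus strand at chr15:8710808-8711057.
Agt: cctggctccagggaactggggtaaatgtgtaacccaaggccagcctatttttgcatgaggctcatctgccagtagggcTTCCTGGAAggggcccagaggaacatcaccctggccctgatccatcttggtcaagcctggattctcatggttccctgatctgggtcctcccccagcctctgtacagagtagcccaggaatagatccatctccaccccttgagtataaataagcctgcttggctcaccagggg
Gjb6: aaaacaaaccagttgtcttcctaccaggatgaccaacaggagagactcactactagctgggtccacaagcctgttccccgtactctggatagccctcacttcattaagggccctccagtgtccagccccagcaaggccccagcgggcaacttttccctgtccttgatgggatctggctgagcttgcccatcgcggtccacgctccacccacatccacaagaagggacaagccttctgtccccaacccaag
Gja1: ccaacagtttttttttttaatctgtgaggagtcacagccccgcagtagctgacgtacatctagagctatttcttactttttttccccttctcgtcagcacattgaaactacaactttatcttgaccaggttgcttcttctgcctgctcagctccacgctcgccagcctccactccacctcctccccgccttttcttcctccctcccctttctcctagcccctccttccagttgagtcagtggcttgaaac
Slc1a3: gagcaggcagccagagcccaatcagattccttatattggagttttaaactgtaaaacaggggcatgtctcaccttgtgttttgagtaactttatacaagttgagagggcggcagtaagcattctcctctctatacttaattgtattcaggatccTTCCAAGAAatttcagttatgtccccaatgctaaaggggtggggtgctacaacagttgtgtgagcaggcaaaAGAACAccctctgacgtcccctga

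Both strands of each 300-base promoter, which adds the first 50 bases after the start site, were searched for 6 motifs. The Agt promoter held 1 STAT site (TTCNNNGAA) beginning at position -172, and the Slc1a3 promoter held 1 STAT site at -96 and 1 glucocorticoid receptor hexamer (AGAACA) at -24. None of the 6 motifs was in the Gjb6 or Gja1 windows. Of all 32817 mouse promoters searched the same way, 8.29% held a STAT site, 19.0% the glucocorticoid receptor hexamer, 0.00914% the palindromic full glucocorticoid receptor site, which overlaps the hexamer, 10.8% a C/EBP site (TTGCNNAA), 3.65% a FOXO site (GTAAACA) and 1.79% a cAMP response element (TGACGTCA). Among the other members, Gfap held a STAT site at -2, Slc1a2 a C/EBP site at -158 on the other strand, Aldh1l1 a C/EBP site at -234 and S100b none. The windows of Slc1a2, Aldh1l1 and Gfap belong to start sites inside the annotated gene. They begin at chr2:102706188 and chr6:90550543, where the genes begin at 102658659 and 90486427. The Gfap window ends at chr11:102897450, where the minus-strand gene reaches 102900912. Aqp4 was not included. These matches describe letters in a window and were not tested for binding.

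Library depth ranged from 5517552 to 39999368 counts. Levels are CPM over the shared genes, scaled by 1 set of TMM factors over all 72 libraries (scaled CPM). Sums of marker lists are unscaled CPM. The summed level of 12 hypothalamic genes such as Agrp, Npy and Pomc was between 160 and 2815 CPM, but lists that mark thalamus (632 to 2354 CPM) and striatum (346 to 1470 CPM) were present in every library too. There were 12 libraries that stood apart, 11 through markers of another tissue and 1 through a skewed composition. Pituitary markers reached 1377 to 12601 CPM in all 3 fasted E2 WT libraries, 6854 CPM in 1 fasted E4 KO library, 20343 CPM in 1 fasted E5 KO library and 4919 CPM in 1 fasted E5 WT library, where the median library had 1.99 CPM. Choroid plexus markers were high in 1 fasted KO, 1 fed KO and 1 fasted WT library of E3 and in 1 fasted E5 WT library, and fat markers (8763 CPM) in 1 fed E2 KO library. Another fasted E4 KO library, the shallowest, had 36.3% of its counts in 10 genes. Line also coincides with a sex marker: the Y-linked Ddx3y had 69.8 to 136 CPM in the 12 E3 libraries and 0 to 0.316 CPM in the other 60. Differences between lines were therefore not tested.

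All 9 genes were detected in every library, with at least 23 counts for S100b and at least 6525 for Slc1a2. Divided by the length of the longest coding transcript, the glial glutamate transporters led: Slc1a2 had a median of 163 CPM per kb and Slc1a3 106 CPM per kb. Agt followed with 92.8 CPM per kb, ahead of the connexin gene Gja1 with 60.4 and Gfap, the intermediate filament protein of astrocytes, with 58.8. Gjb6, the other connexin, had 33.4 CPM per kb, the water channel gene Aqp4 18.4, Aldh1l1, an enzyme of folate metabolism, 11.5 and S100b, a calcium-binding protein, 5.92. Neighbours in this order did not all separate: Gja1 was above Gfap in 36 of 72 libraries and Slc1a3 above Agt in 44, whereas Slc1a2 was above Slc1a3 in 71 and Gfap above Gjb6 in 69.

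The members differed in how steady they were. Within groups, the SD on the log2 scale was smallest for Slc1a2 (0.14), Slc1a3 (0.15) and Aldh1l1 (0.18) and largest for Gfap (0.33), S100b (0.31) and Agt (0.29). Across the 20 groups, mean Agt spanned 95.4 ± 8.92 scaled CPM in fed E3 KO (SD, n = 3) to 391 ± 53.7 in fasted E4 WT (n = 4). Gjb6 spanned 50.6 ± 3.21 in fed E5 WT to 102 ± 13.2 in fasted E5 WT (SD, n = 4 each). The E3 line, which also stood apart by the sex marker, held the highest group means of Slc1a2 (3334 ± 135 in fed KO), Slc1a3 (658 ± 21.4 in fasted WT), Gja1 (301 ± 29.8 in fasted WT), Aqp4 (192 ± 50.7 in fasted WT), Gfap (228 ± 20.4 in fasted KO) and S100b (19.2 ± 5.61 in fasted KO), each as SD with n = 3, and the lowest of Aldh1l1 (34.7 ± 2.82 in fasted WT).

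**Figure D1:**
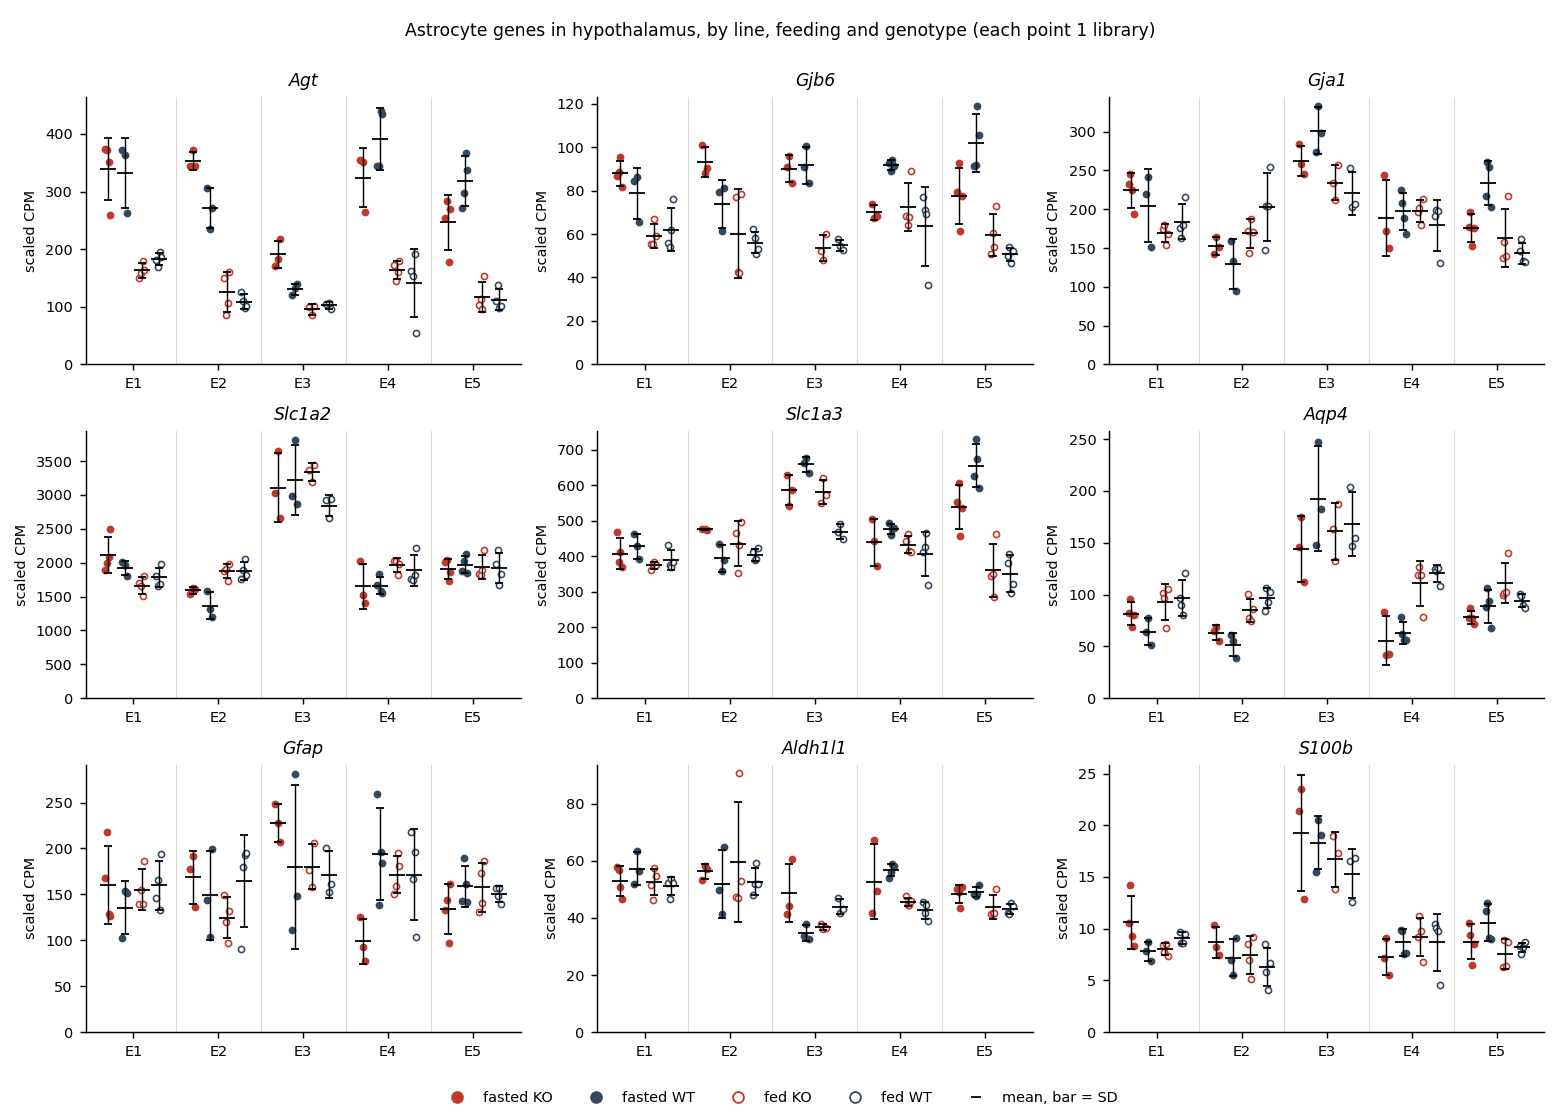
Scaled CPM of the 9 astrocyte genes (vertical axis) in each of 72 libraries (points) by line, with fasted KO, fasted WT, fed KO and fed WT from left to right in each line and horizontal and vertical bars for the mean and SD. Agt lies higher in fasted than in fed libraries in each line and genotype, and the E3 group means lie above those of the other lines for Slc1a2, Aqp4 and S100b.

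Fasting was tested in E1 and E3, the lines whose fasted and fed libraries share a batch prefix in the labels, separately in KO and in WT mice and with line as a covariate (edgeR quasi-likelihood test, Benjamini-Hochberg adjusted over all genes, called under 0.05). In KO mice Agt, Gjb6 and Gja1 rose and no member fell, that is 3 of 9, where 19.8% of all genes were called (11.1% higher, 8.7% lower). In WT mice Agt, Gjb6 and Slc1a3 rose and no member fell, again 3 of 9, where 11.1% of all genes were called (5.47% higher, 5.64% lower). Agt and Gjb6 stayed called in each fit that left out 1 library, 14 in KO and 13 in WT, and Gja1 in all 14 in KO. The median change over the members was 0.18 on the log2 scale in KO and 0.14 in WT, against 0.01 in each over all genes.

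Agt encodes angiotensinogen, the only precursor of the angiotensin peptides. In E1 it had 374, 372, 350.4 and 259.5 scaled CPM in fasted KO libraries, against 149, 159, 179.7 and 164 in fed KO libraries. In E3 it had 171, 184 and 218 in fasted KO libraries, against 99.5, 85.1 and 101 in fed KO libraries. In both lines the lowest fasted KO library lay above the highest fed one. Of the 13459 genes with a mean log2 level of at least 1, 35.4% were apart in E1 KO and 19.8% in E3 KO. In each line 4 of the 9 members were apart, that is without overlap. Agt was 2.05-fold higher in fasted KO mice (95% CI 1.80 to 2.33, log2 1.04, SE 0.09, edgeR adjusted p 7.67e-06).

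The WT mice moved the same way. Agt had 371, 364 and 263 scaled CPM in fasted E1 WT libraries, against 180.5, 169.6, 195.5 and 186 in fed E1 WT libraries. It had 120.1, 133 and 139 in fasted E3 WT libraries, against 105, 106 and 95.8 in fed E3 WT libraries. The groups did not overlap in either line, but the step was smaller in E3. In WT 21.7% of the 13459 genes were apart in E1 and 40.6% in E3, with 2 and 5 of the 9 members. Over both lines Agt was 1.54-fold higher in fasted WT mice (95% CI 1.32 to 1.81, log2 0.63, SE 0.11, edgeR adjusted p 0.00475). Fitted in each line alone, the log2 change in WT was 0.86 in E1 and 0.36 in E3, both called. With a replicate block in E3 alone, Agt was not called in WT (edgeR adjusted p 0.0886).

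The connexins came next. Gjb6 had 86.9, 88.3, 95.6 and 81.6 scaled CPM in fasted E1 KO libraries, against 55.3, 55.3, 66.9 and 59.1 in fed ones, and 90.8, 95.9 and 83.7 in fasted E3 KO libraries, against 52.1, 48.2 and 60.1 in fed ones. The fasted and fed KO libraries did not overlap in either line, where 35.4% of genes were apart in E1 and 19.8% in E3. Gjb6 was 1.57-fold higher in fasted KO mice (95% CI 1.42 to 1.74, log2 0.65, SE 0.07, edgeR adjusted p 6.81e-05). In WT mice Gjb6 had 84.6, 86.3 and 65.3 in fasted E1 libraries, against 55.9, 54.1, 61.7 and 76.2 in fed ones, and 91.0, 101 and 83.5 in fasted E3 libraries, against 57.5, 54.7 and 52.5 in fed ones. The WT groups overlapped in E1 and did not in E3, where 40.6% of genes were apart. The rise in WT was 1.44-fold (95% CI 1.24 to 1.67, log2 0.52, SE 0.10, adjusted p 0.00889). It was called in E3 alone (log2 0.75) and not in E1 alone (log2 0.34, adjusted p 0.149).

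Gja1, the more abundant astrocyte connexin per kb here, had 233, 245, 225 and 194 scaled CPM in fasted E1 KO libraries, against 174, 180.3, 153 and 168 in fed ones. In E3 KO it had 284, 258 and 245 fasted, against 234, 212 and 256 fed. The groups were apart in E1, where 35.4% of genes were, and overlapped in E3. The rise was 1.24-fold in KO (95% CI 1.11 to 1.37, log2 0.31, SE 0.07, edgeR adjusted p 0.00928). It was called in E1 alone (log2 0.41) and not in E3 alone (log2 0.18, adjusted p 0.49). In WT mice Gja1 was 220.0, 242 and 151 in fasted E1 libraries, against 176, 163, 179.8 and 215.6 fed, and 274, 333 and 298 in fasted E3 libraries, against 253, 203 and 206 fed. The groups overlapped in E1, with the third fasted library below every fed one, and were apart in E3, where 40.6% of genes were. The WT estimate was log2 0.29 (SE 0.11, edgeR adjusted p 0.0983). It was called in 1 of 13 fits that left out 1 library, the one without the third fasted E1 library (log2 0.39, adjusted p 0.00602). Of 10 other alternative fits 1 called it, and the log2 change over them ran from 0.15 to 0.46.

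The glutamate transporters differed from each other. Slc1a3 had 463, 429 and 393 scaled CPM in fasted E1 WT libraries, against 431, 374, 370.4 and 385 in fed ones, and 663, 677 and 635 in fasted E3 WT libraries, against 468, 491 and 449.6 in fed ones. The E1 groups overlapped and the E3 groups did not, where 40.6% of genes were apart. Slc1a3 was 1.23-fold higher in fasted WT mice (95% CI 1.09 to 1.38, log2 0.30, SE 0.08, edgeR adjusted p 0.0283), and the call was kept in 6 of 13 fits that left out 1 library. The call ended without E1 fed WT 2 or 3, E1 fasted WT 1, E3 fed WT 2 or 3, or E3 fasted WT 1 or 2, with adjusted p between 0.0508 and 0.0715. E3 fasted WT 1 is the library with choroid plexus markers. It was called in E3 alone (log2 0.50) and not in E1 alone (log2 0.13). In KO mice its log2 change was 0.08 (SE 0.06, adjusted p 0.423). Slc1a2 was called in neither genotype over both lines, with log2 changes of 0.16 (SE 0.11) in KO and 0.14 (SE 0.09) in WT. By the log2 ratio of group means, Slc1a2 in KO was at 0.35 in E1, where 35.4% of genes were apart and it was too. It was at -0.10 in E3 KO, and in WT at 0.11 in E1 and 0.18 in E3, each with overlap.

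The other 4 members were not called in either genotype. The log2 change of S100b was 0.31 in KO and 0.02 in WT, that of Aldh1l1 0.18 in KO and -0.07 in WT, and that of Gfap 0.18 in KO and -0.10 in WT. Aqp4 was negative in both, at -0.17 in KO and -0.22 in WT. In WT the log2 ratio of group means of each differed in sign between E1 and E3. It was -0.59 and 0.19 for Aqp4, 0.16 and -0.34 for Aldh1l1, -0.225 and 0.26 for S100b, and -0.24 and 0.07 for Gfap. In KO each had the same sign in both lines. Groups were apart for Aqp4 in E1 WT (21.7% of genes), Aldh1l1 in E3 WT (40.6%), and Gfap and Aldh1l1 in E3 KO (19.8%). The 95% interval of Gfap ran from -0.08 to 0.43 in KO and from -0.48 to 0.28 in WT. Both held 0, and only the WT interval held a change of 0.18 in either direction.

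**Figure D2:**
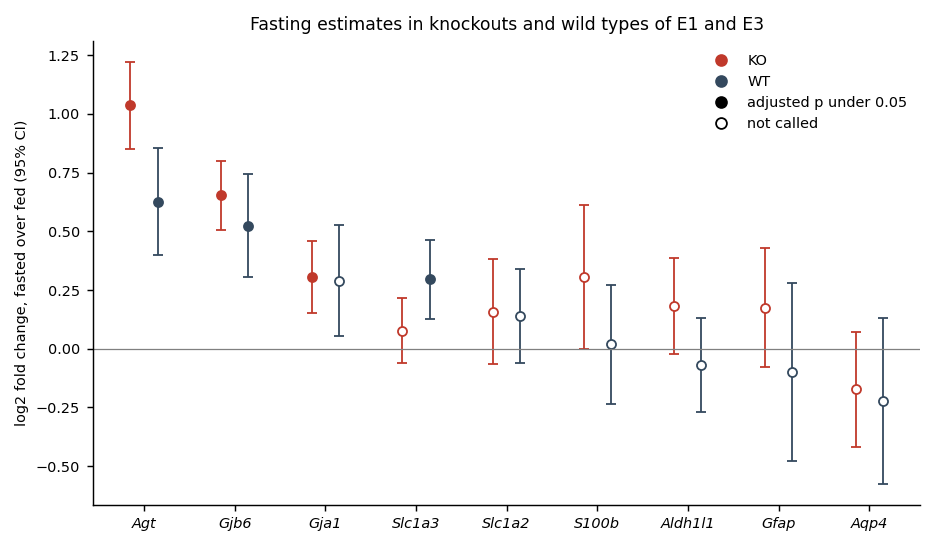
Log2 fold change of fasted over fed mice (vertical axis) for each member, in KO (left point of each pair) and WT (right point) of E1 and E3, with 95% confidence intervals and filled points for adjusted p under 0.05. Agt has the highest point in both genotypes, at 1.04 in KO and 0.63 in WT, and Aqp4 the lowest, at -0.17 and -0.22.

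Genes that work with the members changed unevenly with fasting. The list counts below stand beside 11.1% of all genes called higher and 8.7% called lower in KO. In WT these shares were 5.47% and 5.64%. In glutamate handling, Glul, the glutamine synthetase of astrocytes, rose in KO (log2 0.66) and WT (0.48), and the glutamine transporter genes Slc38a3 (-0.31 in KO, -0.39 in WT) and Slc38a5 (-1.11 and -1.31) fell in both. Of 11 genes in that list, 4 rose and 2 fell in KO and 1 rose and 2 fell in WT. Of 8 connexin and pannexin partners, none rose and 2 fell in each genotype, among them Tjp1, a junction scaffold (-0.34 in KO, -0.30 in WT). Of 9 endfoot genes, Hepacam (0.35) and Gpr37l1 (0.23) rose in KO, and the potassium channel gene Kcnj10 fell in WT (-0.39).

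In the angiotensin system, Atp6ap2, the prorenin receptor, was the only 1 of 10 tested genes called, and it rose in KO (0.36) and WT (0.39). Of 14 tested genes raised in reactive astrocytes, Serpina3n (0.53 in KO, 0.63 in WT) and S100a10 (0.32 and 0.55) rose in both genotypes and none fell. Among 3 tested filament partners of Gfap, Nes fell in KO (-0.61) and none was called in WT. Of 13 genes of glycogen, lactate and folate metabolism, 4 rose and 1 fell in KO and 1 rose and 2 fell in WT: Pdk4, which restrains pyruvate oxidation, rose in both (1.05 in KO, 0.59 in WT) and Gys1, glycogen synthase, fell in both (-0.26 and -0.35). Of 7 and 8 S100 genes tested in KO and WT, S100a10 was the only one called. None of 9 transcription factor genes of astrocytes was called in either genotype.

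Among 21 other genes enriched in astrocytes, 6 rose and 3 fell in KO. Aldoc, an aldolase of glycolysis (0.59), Clu (0.35), Fgfr3 (0.43) and Mt3 (0.47) were among those that rose, and Slc7a10, an amino acid transporter (-0.45), Gpc5 (-0.36) and Mfge8 (-0.38) fell. In WT none rose and 1 fell, which was Slc7a10 (-0.48). These changes came with others in the same fits: 5 of 8 thalamic markers rose in KO (list median 1.10), 4 of 8 cortex and hippocampus markers rose in WT (list median 1.19), 3 of 8 oligodendrocyte markers rose in KO, and 3 of 8 endothelial markers fell in KO and 2 of 8 in WT. Summed thalamic markers were 970 to 2219 CPM in fasted E1 KO libraries, against 1268 to 1409 in fed ones, and 1474 to 2234 in fasted E3 KO libraries, against 1099 to 2170 in fed ones. No library had these markers at 0, and their part in the members' changes was not tested. Among hypothalamic feeding genes, Npy rose (0.92 in KO, 1.62 in WT) and Pomc fell (-1.03 and -0.99).

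In E2, E4 and E5 the fasted and fed libraries have different batch prefixes, so feeding and batch cannot be told apart there and no test was made. Placed beside E1 and E3, fasted Agt was above fed Agt with no overlap in 10 of 10 pairs of line and genotype, with ratios of group means between 1.28 and 2.84. Over the 13459 genes with a mean log2 level of at least 1, 19.8% to 54.8% were apart in the same pairs. In E2 Agt averaged 353 ± 15.9 scaled CPM in fasted KO and 126 ± 35.1 in fed KO (SD, n = 3 and 4), and 271 ± 34.9 in fasted WT and 109 ± 12.8 in fed WT. In E4 it averaged 324 ± 51.1 in fasted KO and 164 ± 15.2 in fed KO, and 391 ± 53.7 in fasted WT and 141 ± 59.4 in fed WT. In E5 it averaged 246 ± 47.5 in fasted KO and 117 ± 26.1 in fed KO, and 318 ± 42.7 in fasted WT and 112 ± 18.5 in fed WT.

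Gjb6 was higher in the fasted group in 9 of 10 pairs and apart in 6, with ratios from 0.966 in E4 KO to 2.01 in E5 WT. Over the 13459 genes, 19.8% to 54.8% were apart in these pairs. Slc1a3 was higher in 9 of 10 pairs but apart in 2. Aqp4 went the other way: the fasted mean was higher in 1 of 10 pairs. Its lowest ratio was 0.501 in E4 KO, where the groups overlapped. In the 5 pairs without overlap the fasted mean was lower each time, down to a ratio of 0.525 in E4 WT. These were E1 WT, E2 KO, E2 WT, E4 WT and E5 KO, mostly in lines where feeding and batch prefix coincide. Of the rest, S100b was higher in 8 pairs, Gja1 and Aldh1l1 in 7, Gfap in 6 and Slc1a2 in 4.

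The effect of each knockout was tested within line and feeding state, which gives 10 comparisons. By edgeR, 0 of 9 members and 0% of all genes were called in every one, with 14590 to 20243 genes tested. The number of genes with an unadjusted p under 0.05 was between 535 and 2574, with 0 to 4 of the 9 members among them. DESeq2 called 0 to 539 genes, and 2 members: Agt in fasted E3 (adjusted p 0.00656) and Gjb6 in fasted E4 (adjusted p 0.0439). The fasted knockouts of E4 and E5 had estimates below 0 for all 9 members (medians -0.21 and -0.28, against 0.01 and 0.00 over all genes), and the fasted knockout of E2 had all 9 above 0 (median 0.27, against -0.03).

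Gfap had 126, 92.6 and 77.7 scaled CPM in fasted E4 KO libraries, against 259, 138, 195.8 and 184 in fasted E4 WT libraries. The KO libraries all lay below the WT ones, where 9.16% of the 13459 genes were apart, and 2 of the 9 members were. Gfap was 0.501 of the WT level (95% CI 0.368 to 0.681, log2 -0.998, SE 0.20), with an unadjusted p of 0.000372 and an edgeR adjusted p of 0.42. In fed E4 mice it averaged 171.5 ± 20.3 in KO and 171 ± 49.6 in WT (SD, n = 4 each). The authors' deposited table, which gives WT over KO, has a log2 fold change of 0.999 for fasted Gfap with p 2.33e-05 and adjusted p 0.42.

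Gjb6 was the other member apart in fasted E4 mice, with 74.0, 67.5 and 68.3 scaled CPM in KO libraries, against 92.9, 88.9, 94.0 and 91.5 in WT libraries. Both groups were tight and did not overlap. Its log2 fold change was -0.41 (SE 0.08, unadjusted p 0.000283, edgeR adjusted p 0.42), and the authors' deposited table gives 0.41 for WT over KO with p 0.00141. The other 7 members had log2 estimates between -0.29 for Agt and -0.02 for Slc1a2. Vim, the filament partner of Gfap, had -1.01 (adjusted p 0.453), and 2 of 14 tested reactive astrocyte genes and 4 of 21 other astrocyte genes had estimates above 0. None of these genes was called.

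Among the 3 fasted E4 KO libraries, 2 stood apart: the first was the shallowest and most skewed, and the third held pituitary markers. Over the whole pituitary list, sums ran from 0.845 to 6854 CPM in KO and from 4.43 to 207 CPM in WT. Without both libraries, 1 KO library was left, which was assumed to vary like the WT libraries. The log2 fold change was then -1.08 for Gfap and -0.45 for Gjb6. These values rest on 1 KO library, and the part of the 2 libraries left out was not tested. Without TMM scaling the median of all genes shifted to -0.19 and Gfap was -1.27 (adjusted p 0.00358). Summed oligodendrocyte markers were 2860 to 3807 CPM in KO and 3781 to 4567 in WT, fibroblast markers 26.6 to 48.8 CPM in KO and 41.0 to 144 in WT, and liver markers 5.47 to 163 CPM in KO and 2.12 to 13.2 in WT. Their part in the difference was not tested.

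In fasted E5 mice Gja1 had 177, 196.6, 153 and 176 scaled CPM in KO libraries, against 217, 261.1, 255 and 203 in WT libraries. The groups did not overlap, where 3.6% of genes were apart and 1 of the 9 members was. The log2 fold change was -0.41 (SE 0.11, unadjusted p 0.00183, edgeR adjusted p 0.662). Gjb6 had 79.1, 92.6, 61.3 and 77.5 in KO libraries, against 91.4, 91.7, 119 and 106 in WT libraries. Here the highest KO library lay above the lowest WT libraries, and the log2 fold change was -0.39 (SE 0.13, unadjusted p 0.00887, adjusted p 0.662). Agt (-0.37) and Slc1a3 (-0.28) also had an unadjusted p under 0.05. Pituitary markers summed to 0.929 to 20343 CPM in KO and 3.19 to 4919 CPM in WT, and choroid plexus markers to 37.4 to 54.7 CPM in KO and 42.3 to 3520 CPM in WT. Without the 3 libraries at those upper ends, Gja1 was at -0.32, Gjb6 at -0.23 and Agt at -0.22.

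**Figure D3:**
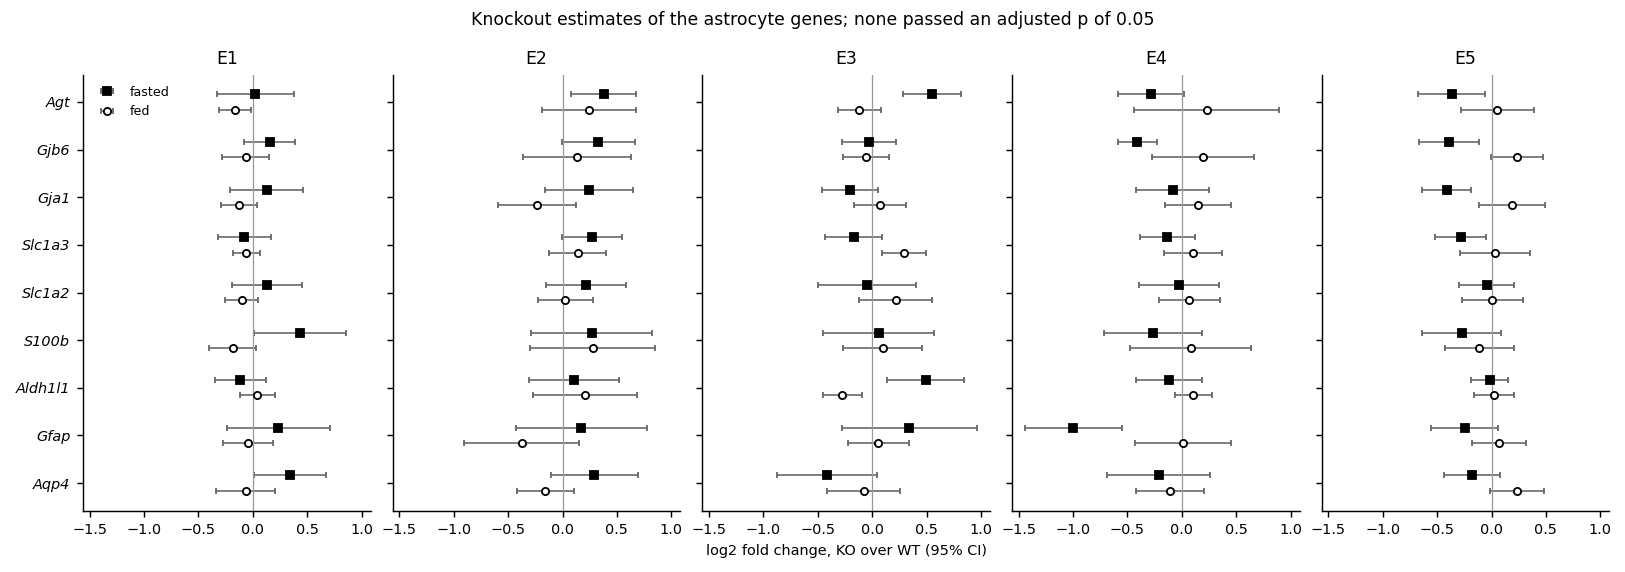
Log2 fold change of KO over WT (horizontal axis) for each member, 1 panel per line, with filled squares for fasted and open circles for fed mice and bars for 95% confidence intervals. The lowest estimate is Gfap in fasted E4 mice at -0.998, and the highest Agt in fasted E3 mice at 0.55.

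In E3, 3 members had an unadjusted p under 0.01 in at least 1 feeding state. Agt had 171, 184 and 218 scaled CPM in fasted KO libraries, against 120.1, 133 and 139 in fasted WT libraries. The groups were apart, where 24.5% of genes were apart and 3 of the 9 members were. The log2 fold change was 0.55 (SE 0.12, unadjusted p 0.00117, edgeR adjusted p 0.148), and the authors' deposited table gives -0.55 for WT over KO with p 0.00213 and adjusted p 1. In 1 model of all 4 E3 groups the adjusted p of Agt was 0.021 and that of Aldh1l1 0.0449. Without the fasted KO library at 704 CPM and the fasted WT library at 432 CPM of choroid plexus markers, left out after seeing the data, Agt was at 0.52 (adjusted p 0.56) and Aldh1l1 at 0.54 (adjusted p 0.56). In fed E3 mice Agt did not separate, with 99.5, 85.1 and 101 in KO libraries, against 105, 106 and 95.8 in WT libraries.

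Slc1a3 had 551, 619 and 574 scaled CPM in fed E3 KO libraries, against 468, 491 and 449.6 in fed E3 WT libraries. All KO libraries were higher, where 15.6% of genes were apart and 3 of the 9 members were. The log2 fold change was 0.29 (SE 0.09, unadjusted p 0.00967, edgeR adjusted p 0.38). Aldh1l1 had 37.9, 36.2 and 36.5 in fed E3 KO libraries, against 47.2, 41.9 and 43.0 in fed E3 WT libraries. All KO libraries were lower, and the log2 fold change was -0.27 (SE 0.08, unadjusted p 0.00746, adjusted p 0.369). Summed endothelial markers were also apart, at 99.8 to 108 CPM in fed KO and 142 to 180 in fed WT, and choroid plexus markers were 32.4 to 592 CPM in fed KO and 26.0 to 28.0 in fed WT. Their part was not tested. Without the third fed KO library, at 592 CPM, Slc1a3 was at 0.30 (adjusted p 0.351) and Aldh1l1 at -0.26 (adjusted p 0.359). In fasted E3 mice both were on the other side of WT, with Slc1a3 at -0.17 and Aldh1l1 at 0.49, neither called.

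In fasted E2 mice, where all 3 WT libraries carried pituitary markers (1377 to 12601 CPM, against 1.5 to 30.5 CPM in KO), Agt, Gjb6 and Slc1a3 were apart and higher in KO, where 15.6% of genes were apart. The log2 estimates were 0.38 for Agt, 0.33 for Gjb6 and 0.27 for Slc1a3, none called, and the part of the pituitary RNA was not tested. In fed E2 mice estimates ran from -0.37 for Gfap to 0.28 for S100b. In E1, the largest were S100b (0.44) and Aqp4 (0.34) in fasted mice and S100b (-0.18) and Agt (-0.17) in fed mice, and S100b was the only member apart, in fed mice, where 2.57% of genes were. In fed E4 and fed E5 mice, 8 of 9 members in each had estimates above 0, none over 0.24. Of these, the KO median was below the WT median for Gfap, Gjb6 and S100b in E4. The same held for Slc1a2, Slc1a3 and Aldh1l1 in E5. Single libraries lay far from their groups: S100b was at 4.52 in the fourth fed E4 WT library (group median 9.90). Aqp4 was at 140 in the fourth fed E5 KO library (group median 102).

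Whether the response to fasting differed by genotype was tested as an interaction in each line, as the log2 fold change of fasted over fed in KO minus that in WT. These tests reuse the libraries of the comparisons above. In E3, edgeR called 2 of 9 members, both positive, where 1.68% of all genes were called (0.599% higher, 1.08% lower). In E1, E2, E4 and E5 it called 0 members and 0% of genes. There 1240, 1298, 2271 and 1173 of 15222, 20452, 19393 and 19319 tested genes had an unadjusted p under 0.05. Of the 9 members 1, 1, 2 and 3 did. DESeq2 called 0, 25, 2 and 2 genes and no member. With feeding and batch prefix joined in E2, E4 and E5, the interaction there is also one between genotype and batch.

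For Agt the E3 interaction was 0.67 (95% CI 0.35 to 0.99, SE 0.15, edgeR adjusted p 0.0442). Fasted KO libraries lay above all others, at 171, 184 and 218 scaled CPM, while fed KO libraries had 99.5, 85.1 and 101. For Aldh1l1 it was 0.77 (95% CI 0.39 to 1.16, SE 0.18, adjusted p 0.0486). Aldh1l1 had 41.5, 44.2 and 60.6 in fasted KO libraries and 33.7, 37.9 and 32.6 in fasted WT libraries, against 37.9, 36.2 and 36.5 in fed KO and 47.2, 41.9 and 43.0 in fed WT. Its KO libraries were the higher ones when fasted and the lower ones when fed. Slc1a3 had an interaction of -0.45 (adjusted p 0.0836), which edgeR did not call and DESeq2 did.

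Both E3 calls were close to the threshold. Each was kept in 2 of 12 fits that left out 1 library, those without the first fasted KO or the second fasted WT library, and in the other 10 the adjusted p reached up to 0.117 for Agt and 0.123 for Aldh1l1. Summed choroid plexus markers were 46.7 to 704 CPM in fasted KO and 47.4 to 432 in fasted WT, against 32.4 to 592 in fed KO and 26.0 to 28.0 in fed WT. Without the KO libraries at 704 and 592 CPM, the estimates were 0.74 for Agt (adjusted p 0.109) and 0.83 for Aldh1l1 (adjusted p 0.113). With the WT library at 432 CPM left out as well, an alternative chosen after seeing the data, they were 0.69 (adjusted p 0.205) and 0.81 (adjusted p 0.206). With a trend on transcript GC content removed, an alternative chosen after seeing the data, no gene was called and the estimates were 0.43 for Agt and 0.57 for Aldh1l1. The longest coding transcripts of Agt and Aldh1l1 have 56.3% and 54.4% GC, against a median of 49.1% over coding genes. Other genes called in the same E3 test from the lists were Slc2a1, a glucose transporter gene (0.84), Flt1 of endothelium (1.37), and the neuronal genes Calb1 (-0.67) and Lamp5 (-1.70). Summed endothelial markers were 75.0 to 94.1 CPM in fasted KO and 63.8 to 92.5 in fasted WT, against 99.8 to 108 in fed KO and 142 to 180 in fed WT, and the part of these and the choroid plexus markers was not tested.

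In the other lines no interaction was called. Gfap in E4 had -1.01 (SE 0.32, unadjusted p 0.00521, edgeR adjusted p 0.418) and Gjb6 in E4 -0.61 (unadjusted p 0.0244). In E5 Gjb6 had -0.64 (SE 0.18, unadjusted p 0.00236) and Gja1 -0.62 (unadjusted p 0.00451), with an adjusted p of 0.786 for both. In E1 S100b had 0.62 (unadjusted p 0.00845, adjusted p 0.6).

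**Figure D4:**
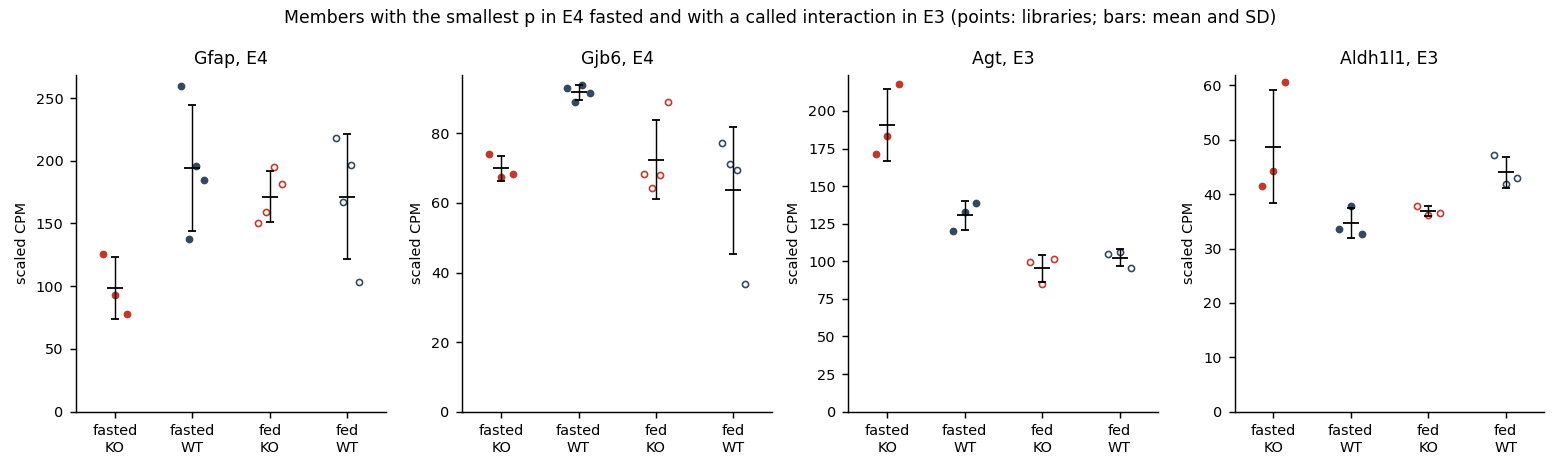
Scaled CPM (vertical axis, from 0) of Gfap and Gjb6 in E4 and of Agt and Aldh1l1 in E3, with points for libraries and bars for the mean and SD, in fasted KO, fasted WT, fed KO and fed WT from left to right. The fasted KO points lie below the fasted WT points for both E4 genes and above them for both E3 genes.

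The members did not rise and fall as one from library to library. After each library's log2 level was taken as its deviation from its group mean, the 36 pairs of members had a median Spearman rho of 0.32 over 72 libraries, from -0.15 (Slc1a2 and Aldh1l1) to 0.74 (Agt and Gjb6). Agt and Gjb6 had 0.72 without the 12 libraries that stood apart, and Gja1 and Aqp4, both of endfeet and processes, had 0.71 with them. Libraries share depth, scaling and dissection, so these values are a description. Aldh1l1 was least like the others, with a median rho of 0.14. Against all 13459 genes, the median rho of a member ran from -0.003 (S100b) to 0.05 (Gja1). The 95th percentile ran from 0.40 (Slc1a2) to 0.59 (Slc1a3). Against the summed lists, the mean of the members had a rho of 0.82 with the list of other astrocyte-enriched genes, 0.71 with glutamate handling, 0.63 with astrocyte metabolism and 0.28 with reactive astrocyte genes. It had 0.01 with endfoot genes, -0.11 with filament partners, -0.21 with connexin and pannexin partners and -0.34 with astrocyte transcription factors. Among lists of other cells and regions it had 0.64 with oligodendrocyte, 0.62 with oligodendrocyte precursor and 0.57 with microglial markers. It had -0.36 with endothelial, -0.59 with thalamic and -0.65 with striatal markers.

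**Figure D5:**
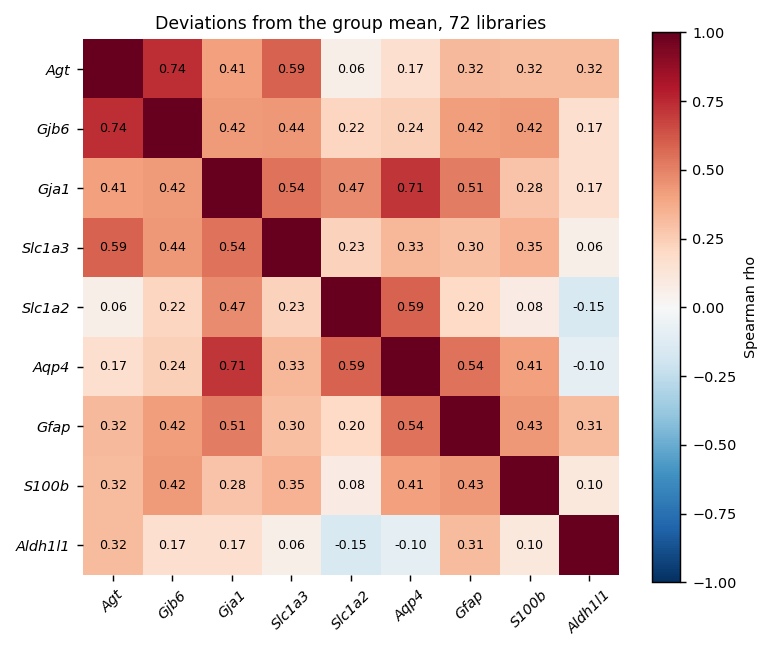
Spearman rho between pairs of members over 72 libraries, computed on log2 levels as deviations from each library's group mean, with the colour scale running from -1 (blue) to 1 (red). Agt with Gjb6 (0.74) and Gja1 with Aqp4 (0.71) are the strongest pairs, and Slc1a2 with Aldh1l1 (-0.15) the lowest.

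By the same measure, the genes most like the mean of the members were Aldoc (rho 0.86), Ndrg2 (0.86), Gprc5b (0.85), Pea15a (0.85) and Aktip (0.84), out of 13080 genes. For Gfap they included Efnb3 (0.66), Gprc5b (0.66), Tppp3 (0.65) and Dkk3 (0.65). Leading genes were Disp2 for Agt (0.80), Agt itself for Gjb6 (0.74), Eif2s3x for Gja1 (0.84), Tmod2 for Slc1a2 (0.80) and Cd200 for Slc1a3 (0.86). They were Golga7 for Aqp4 (0.80), Slc25a10 for Aldh1l1 (0.70) and Cmtm5 for S100b (0.76). Without the 12 libraries that stood apart, 1 of the leading 5 for the mean and 0 of the leading 5 for Gfap were among the leading 5 again. For Slc1a2, Slc1a3 and S100b, 1 of the leading 2 was kept each time, and Cd200 (0.87) and Cmtm5 (0.76) were those for Slc1a3 and S100b. For Agt, Gjb6, Gja1, Aqp4 and Aldh1l1, 0 of 2 were kept, and the gene most like Gfap was then C4b (0.75), a complement gene.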

How the data were processed

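Total RNA of 72 mouse hypothalamus samples was sequenced. Per the submitters' processing notes, the authors used HISAT2, Bowtie2, edgeR and mm10, without versions, and whether counting used strand is not given in the sources used here. The authors deposited raw counts per Ensembl gene in 10 tables, and comparison tables whose log2 fold changes and p-values they computed as WT over KO. The 9 genes were matched by the gene names in those tables. E3 column names begin with ctrl or 3CR and were read as fed or fasted. There were 0 count columns without a sample. The 9 genes and the gene lists were chosen with earlier results of these data known.

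From the counts, edgeR 4.0.16 quasi-likelihood tests (R 4.3.3, TMM factors, minimum count 10, minimum total 15, adjusted p 0.05) were fitted on all genes of each comparison: 10 of genotype, 2 of fasting and 5 interactions. DESeq2 1.42.0, python 3.11.15, numpy 2.4.6 and pandas 2.3.3 served alternatives and summaries. The edgeR tests of genotype in fasted E4 and fed E1, of fasting in WT and of the E3 interaction were run on simulated data. The simulation used a fixed dispersion, and the remaining tests were not simulated. Scaled CPM divides counts by the total of the 21749 shared genes times 1 TMM factor per library; rho used log2(scaled CPM + 0.5). Depth ran from 5517552 to 39999368 counts. Precision is given by confidence intervals and SEs over libraries.

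Named were all 9 genes, with every library's value for those called or with an unadjusted genotype p under 0.01, up to 4 called genes per list and direction with the smallest p, and the genes most alike in level: 5 for the mean and for Gfap, 2 for the others, of which the first is printed. Alternatives were other scaling, DESeq2, an older quasi-likelihood fit, no filter, a 4-group model, a replicate block, each line alone, each library left out and libraries that stood apart left out. These stood apart within the comparison or, added later, among all 72 libraries: they had a marker list above 300 CPM and 10 times the median, or over 25% of counts in 10 genes. Not reported here are the Aqp4 promoter and a few genes chosen by this rule.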

Additional observations from a re-analysis of the deposited data

Results flagged for a closer look

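In 12 groups of 4 libraries, 108 sets of 4 levels were examined for a library far from the others, and 11 were past the critical value. Chance alone marks about 5% of such sets. Levels are scaled CPM. The fourth fed E4 WT library stood apart for 4 genes, with Gja1 at 130.3 (group median 194), Slc1a2 at 2217 (1788), Aqp4 at 108.3 (124) and S100b at 4.52 (9.90). It was also the lowest of its group for Agt (55.3) and Gjb6 (36.7). The fourth fed E4 KO library had Gjb6 at 89.1 (68.2) and Aqp4 at 78.5 (119). The fourth fed E5 KO library had Aqp4 at 140.3 (102) and Aldh1l1 at 50.3 (41.8). Aldh1l1 was at 51.6 in the fourth fasted E5 WT library (48.4) and at 90.8 in the third fed E2 KO library (50.2), whose fat markers summed to 8763 CPM. Gfap was at 90.7 in the first fed E2 WT library (187).

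The response to fasting differed between KO and WT in E3 for Agt, by 0.67 on the log2 scale, and for Aldh1l1, by 0.77, as tested by an interaction term. Both calls ended under several of the settings given in the next section.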

How the results depend on the processing

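Of the 9 genes, the number called in fasted E3 was 1 by DESeq2 and 2 with all 4 groups in 1 model, against 0; in fasted E4 it was 1 by DESeq2 and 1 with library totals in place of TMM, against 0. For fasting in WT it was 1 in E1 alone and 1 in E3 alone with a replicate block, against 3, and in KO 1 in E3 alone with a replicate block, against 3. In those blocked fits Gjb6 stayed called in WT (adjusted p 0.0111) and Agt in KO (0.0409), while Agt was not called in WT (0.0886), nor Slc1a3 (0.0675) or Gja1 (0.0803) in WT or Gjb6 (0.0843) in KO. In the E3 interaction it was 1 with the older quasi-likelihood fit, and 0 with no filter, without libraries that stood apart within the test or among all 72 (the second chosen after seeing the data), with a replicate block and with a GC trend removed (chosen after seeing the data), against 2. With each library left out in turn it was 2 to 4 for WT fasting, 3 to 4 for KO fasting, 0 to 2 for the E3 interaction and 0 elsewhere. No direction of a called value reversed, and the cause of these changes was not tested. Same-numbered libraries correlated between -0.262 and 0.392 in their deviations, so the numbers were not taken as pairs; with a replicate block the E3 interaction had adjusted p 0.0727 for Agt and 0.0834 for Aldh1l1. In fasted E3 each of the 3 pairs correlated best with its own number.

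Over all genes, DESeq2 called 109 genes in fasted E2, 107 in fed E3, 539 in fasted E3, 19 in fasted E4, 21 in fasted E5 and 1098 in the E3 interaction. The 4-group model called 18 in fasted E2 and 652 in fasted E3, and library totals 56 in fasted E4. WT fasting gave 801 genes in E1 alone, 2881 in E3 alone, 1041 without the library that stood apart and 720 to 3291 with each library left out, against 1684. KO fasting gave 5174 in E1 alone and 79 in E3 alone, against 3015, and 1995 to 3843 with each library left out. The E3 interaction gave 0 to 699 genes with each library left out, against 253. Leaving out libraries that stood apart gave no value for the E2 interaction, which it leaves without fasted WT.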
